A study of Mus musculus with 360 samples.

Results

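Molecular chaperones and the genes that govern protein folding stress were followed through 5 tissues of mice exposed to 2 isomers of dichlorobenzene. Members were the probes whose gene symbol begins with Hsp, Dnaj, Cct followed by a digit from 2 to 8, Pdia, Calr, Canx, Ddit, Atf followed by a digit, Xbp1, Hyou1, Herpud or Edem. The rule used names alone and found 49 probes for 39 genes, out of 3154 probes for 2756 genes on the panel. Of these genes, 32 had 1 probe each, and Atf5, Dnajb2, Hsp90aa1, Hspa4l, Hspa8, Hsph1 and Xbp1 had several. In every tissue 48 of the 49 probes passed the filter on low counts, and the exception was the second Xbp1 probe, whose counts were close to 0. By role the set held 9 genes of the endoplasmic reticulum (ER), 10 cytosolic HSP70, HSP90 and HSP110 genes, 2 small heat shock proteins and 4 J-domain proteins outside the ER and mitochondria. It further held 3 mitochondrial chaperones, 2 subunits of the TRiC chaperonin and 8 stress transcription factors. Ddit4, an inhibitor of mTOR signalling, was matched by its name only.

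RNA was measured with the Mouse S1500+ TempO-Seq panel, in which pairs of detector oligonucleotides are ligated on their target RNA and counted by sequencing. The animals were female B6D2F1/Crl mice aged 9 weeks, hybrids of the C57BL/6 and DBA/2 strains, and lung, heart, left liver lobe, kidney and ovaries were taken on study day 5. In the first series 37 mice received 1,2-dichlorobenzene (1,2-DCB) at 0, 1, 10, 30, 100 or 250 ppm, and in the second 35 mice received 1,4-dichlorobenzene (1,4-DCB) at 0, 1, 10, 50, 150 or 400 ppm. The chlorine atoms sit on neighbouring carbons of the benzene ring in the 1,2 isomer and opposite each other in the 1,4 isomer, and the route of exposure is not given in the sources used here. Animals at 0 ppm served as the controls of their own series. In heart and ovary each series had 10 controls, 7 mice were exposed to 250 ppm and 5 to every other concentration. Lung had 10 controls per series, 4 animals at 1 ppm and 6 at 250 ppm 1,2-DCB, and 5 in each other exposed group. Liver had 9 controls of the 1,2-DCB series, with 2, 4, 5, 5 and 6 animals from 1 to 250 ppm, and 7 controls of the 1,4-DCB series, with 5, 4, 5, 4 and 5 animals from 1 to 400 ppm. Kidney had 5 and 6 controls, with 4, 4, 3, 2 and 6 animals from 1 to 250 ppm and 4, 4, 4, 4 and 5 from 1 to 400 ppm.

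Chaperones bind unfolded or newly made proteins and help them reach or keep their shape. In the cytosol, HSP70 proteins work with J-domain partners and with HSP110 as nucleotide exchange factor, and the heat shock factor HSF1 raises their transcription when unfolded proteins accumulate. In the ER, the HSP70 protein BiP (Hspa5), HSP90B1, calreticulin and the disulfide isomerases fold secreted proteins, and an overload starts the unfolded protein response through IRE1 with XBP1, ATF6, and PERK with ATF4 and CHOP (Ddit3). The liver secretes most plasma proteins, so its cells carry a large ER.

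No promoter sequence was available for Hsp90aa1, Hsp90ab1, Hspa8, Hyou1 and Atf6, which were not searched. Those of the other 34 of the 39 genes were matched by symbol in RefSeq (GRCm38.p6). Each ran from 250 bases before to 50 bases after the start of the gene. The ER stress element was read as CCAAT and CCACG with any 9 bases between them, on either strand. It was present in 5 of the 34 genes (Hspa5, Hsp90b1, Calr, Canx and Pdia6), against 0.137% of 27025 symbols with a promoter. A heat shock element of 3 units, read as GAA and TTC in turn with any 2 bases between units and starting with either, on either strand, was present in 3 (Hsph1, Dnajb6 and Hspd1), against 0.662% of symbols. The core TGACGTCA was found in 0 members and in 2.03% of symbols, and TGACGTGG in 0 members and in 0.714% of symbols. The stretches that hold the element are shown for 3 ER chaperones described below and for Hsph1, 5′ to 3′ on the strand of the gene, with the matched letters in capitals. The ER stretches lie before the gene start, with up to 40 bases on either side of the match. That of Hsp90b1 holds 2 matches, 1 of them on the opposite strand. The match of Calr also lies on the opposite strand. The Hsph1 stretch lies after the start. A match describes these letters and is no evidence of binding.
Hspa5, chr2:34771985-34772083, plus strand: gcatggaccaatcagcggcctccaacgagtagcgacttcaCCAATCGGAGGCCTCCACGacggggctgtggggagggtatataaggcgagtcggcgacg
Hsp90b1, chr10:86705493-86705694, minus strand: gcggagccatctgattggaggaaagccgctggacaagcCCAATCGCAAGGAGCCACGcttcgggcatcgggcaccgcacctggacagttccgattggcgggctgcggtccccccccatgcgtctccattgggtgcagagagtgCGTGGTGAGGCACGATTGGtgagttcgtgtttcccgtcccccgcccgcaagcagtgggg
Calr, chr8:84847035-84847133, minus strand: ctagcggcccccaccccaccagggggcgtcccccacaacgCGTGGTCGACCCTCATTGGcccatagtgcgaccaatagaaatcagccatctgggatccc
Hsph1, chr5:149636287-149636316, minus strand: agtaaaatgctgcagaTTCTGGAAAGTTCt

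Deposited totals per library ranged from 4.34 M counts, in an ovary library, to 46.5 M, in a lung library, and the median was lowest in ovary (5.93 M) and highest in lung (20.1 M). The members took the largest median share of the counts in ovary (16.02%), then in kidney (11.1%) and lung (9.47%), and less in heart (5.43%) and liver (5.16%). Marker genes fitted the labelled tissue in liver (11 hepatocyte probes, median sum 341900 counts-per-million, CPM), heart (6 cardiomyocyte probes, 272700 CPM) and ovary (10 probes, 8062 CPM). Kidney was checked with 2 tubule probes (2972 CPM), and no listed lung epithelium gene was on the panel. Dbp, a transcription factor under the circadian clock, was higher in many exposed groups than in their controls. Its median went from 56.1 to 254 CPM in heart and from 72.8 to 293 CPM in lung at 250 ppm 1,2-DCB. An alternative fit therefore carried Dbp as a covariate. It is given for some of the calls that it ended, so a call given without it may not have held there. Calls said to hold in every alternative held in this fit too. In some contrasts Dbp itself separated exposed animals from controls. It was at 489 to 698 against 32.45 to 229 CPM in kidney at 250 ppm 1,2-DCB. In heart at 400 ppm 1,4-DCB it was at 160 to 360 against 27.01 to 90.5 CPM. Where a call is lost in such a contrast, Dbp and exposure cannot be told apart.

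Levels of single genes differed between tissues in the 0 ppm animals of both series, given here as medians in CPM per probe and as a description. Hspb6, a small heat shock protein of muscle, stood at 389 CPM in heart (range 298 to 515, 20 animals) and between 1.26 and 4.197 CPM in the other tissues. Hspa1l, an HSP70 best known from testis, was at 68.1 CPM in heart and at 10.9 CPM or less elsewhere. The heart ranges of both genes did not overlap with those of any other tissue. Atf5, a transcription factor of the mitochondrial and amino acid stress responses, was by its main probe at 711 CPM in liver (586 to 992, 16 animals), above the range of every other tissue. Hspb1, the small heat shock protein HSP27, was lowest in liver (5.05 CPM) and highest in heart (109.3) and lung (93.4), whose ranges overlapped. Hspa5 was highest in ovary (11950 CPM, range 6702 to 16170) and between 3606 and 5792 CPM in the other tissues. The stress-inducible HSP70 gene Hspa1b followed the order kidney (170 CPM), lung (136.3), ovary (63.6), liver (40.2) and heart (15.9), with overlapping ranges between neighbours in that order.

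In liver at 250 ppm 1,2-DCB, 4 of the 10 cytosolic HSP70, HSP90 and HSP110 genes fell (Hspa1b, Hspa4, Hspa8 and Hsph1), and the other 6 did not pass the test. Of the 9 ER genes, Canx, Herpud1, Hyou1 and Pdia5 fell, while Hspa5, Calr and Hsp90b1 did not pass. Of 48 probes, 3 were higher and 21 lower than control at an adjusted p under 0.05 by the quasi-likelihood test of edgeR, which is 50.0% of them against 49.8% of all 2601 probes. Since the shares are so close, the count alone does not set the members apart. Over all probes 25.1% were higher and 24.6% lower, and the median log2 change was -0.28 for members and -0.03 for all probes.

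Hspa1b lay at 23.9, 46.96 and 61.3 CPM (lowest, median and highest of 9 controls) and at 5.57, 7.53 and 12.9 CPM in the 6 exposed livers. The groups did not overlap, and the mean fell from 44.7 ± 12.7 to 8.20 ± 2.51 CPM (SD), by 2.45 ± 0.33 on the log2 scale (SE, adjusted p = 5.68e-09). Its near-identical copy Hspa1a may share reads with it, so the split between the copies is uncertain. Hsph1, the HSP110 that recharges HSP70, was at 24.5, 28.7 and 35.7 CPM in controls and at 9.49, 12.4 and 16.5 CPM in exposed livers by the probe with the smallest p. These groups did not overlap either, and the probe fell by 1.16 ± 0.16 on the log2 scale (adjusted p = 1.35e-08). A second Hsph1 probe fell by 1.10 ± 0.18, and the third did not pass the test.

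Hspa8, the constitutive HSP70, fell by 0.57 ± 0.13 on the log2 scale by its best probe (adjusted p = 0.000293), with 6 of 6 exposed livers below all controls, and 3 of its 4 probes passed; pseudogenes of Hspa8 make its split uncertain. Dnajb1, the main J-domain partner of inducible HSP70, fell by 0.75 ± 0.15 (adjusted p = 3.05e-05), with 1 of 6 livers below all controls. Hspb1 fell by 1.04 ± 0.26 (adjusted p = 0.000608), from 6.54 ± 2.43 to 3.17 ± 0.75 CPM. The best probe of Hsp90aa1, the inducible cytosolic HSP90, had a log2 difference of 0.23 ± 0.11 (adjusted p = 0.0861). In bulk tissue, fewer cells of a type and less RNA per cell cannot be told apart.

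Among ER genes, Herpud1, which takes part in the disposal of misfolded ER proteins, was at 949, 1285 and 1894 CPM in controls and at 318, 477 and 550 CPM at 250 ppm. All 6 exposed livers were below all controls, and the gene fell by 1.57 ± 0.19 on the log2 scale (adjusted p = 4.44e-10). Pdia5, a disulfide isomerase, fell by 0.71 ± 0.10 (adjusted p = 2.74e-08) and was also lower in 6 of 6 livers than in any control. The ER HSP110 Hyou1 fell by 0.55 ± 0.17 (adjusted p = 0.00615), and calnexin (Canx) by 0.12 ± 0.05 (adjusted p = 0.0337).

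The ER chaperones with most counts gave other values. Hspa5 was at 2190, 3579 and 6678 CPM in controls and at 2000, 3186 and 3603 CPM at 250 ppm. Its groups overlapped widely, with a log2 difference of -0.28 ± 0.20 (adjusted p = 0.246). Hsp90b1 differed by -0.19 ± 0.10 (adjusted p = 0.108) and Calr by -0.03 ± 0.10 (adjusted p = 0.814). These are 3 of the 5 genes with an ER stress element in the promoter window shown above; of the others, Canx passed the test and Pdia6 did not.

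Stress transcription factors moved both ways at 250 ppm. Atf5 was at 600, 769 and 992 CPM in controls and at 337, 441 and 483 CPM in exposed livers, so the groups did not overlap, and it fell by 0.85 ± 0.11 on the log2 scale (adjusted p = 1.25e-09). Xbp1, the factor activated by IRE1, fell by 0.63 ± 0.14 (adjusted p = 0.000193), with 6 of 6 livers below all controls. Atf4, the factor downstream of PERK, fell by 0.50 ± 0.08 (adjusted p = 1.58e-07). Atf3, an immediate stress-induced factor, rose by 1.66 ± 0.42 (adjusted p = 0.000734) but from a low level, 1.13 ± 0.60 to 3.58 ± 1.956 CPM.

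The other 2 rises were of Ddit4, from 6.52 ± 1.40 to 16.5 ± 4.94 CPM (log2 change 1.34 ± 0.23, adjusted p = 2.52e-06), and of Dnajc9, a J-domain co-chaperone of histones that dividing cells express. Dnajc9 was at 5.62, 7.81 and 10.8 CPM in controls and at 15.7, 19.7 and 49.1 CPM at 250 ppm. It was above all controls in 6 of 6 livers and rose by 1.62 ± 0.18 on the log2 scale (adjusted p = 3.17e-11). The summed hepatocyte markers (11 probes) ranged from 268900 to 418700 CPM in controls and from 218900 to 260400 CPM at 250 ppm. Leukocyte markers (11 probes) had medians of 453 and 1010 CPM, with overlapping ranges, and red cell markers (6 probes) of 11050 and 496 CPM, without overlap. The part of these shifts in the member changes was not tested.

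**Figure D1:**
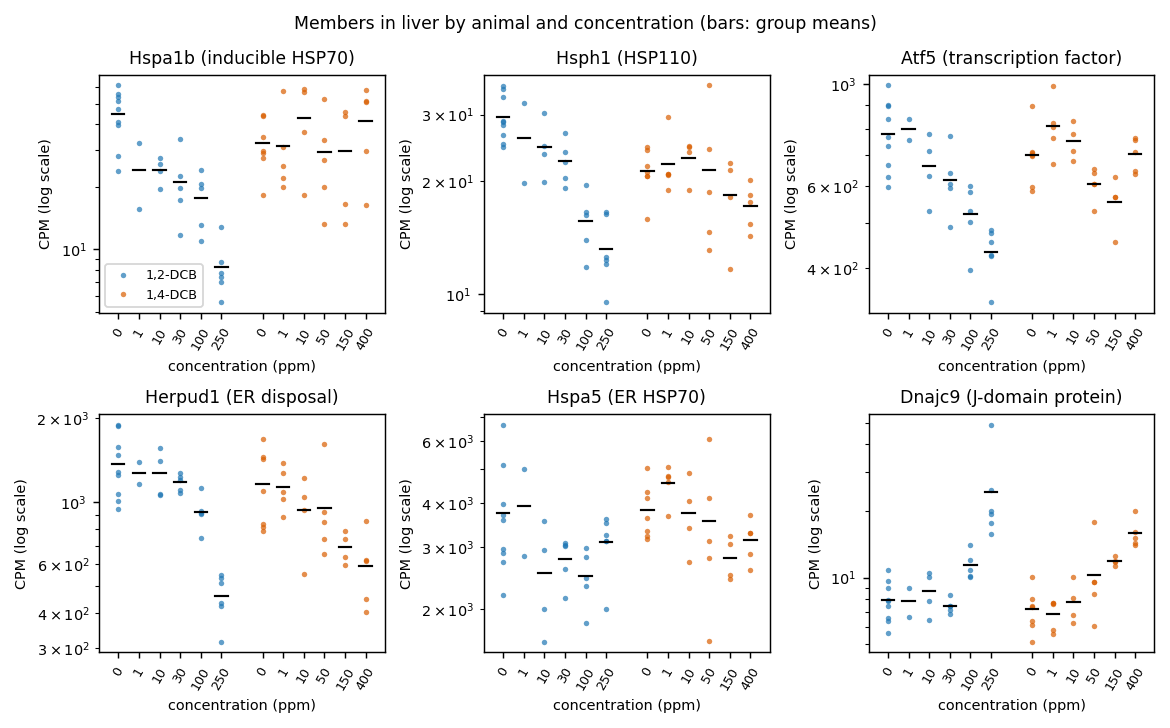
Counts-per-million (log axis) of 6 members in each liver by concentration of 1,2-DCB (blue) and 1,4-DCB (orange); points are animals and bars group means. Hspa1b, Hsph1, Atf5 and Herpud1 step down along the 1,2-DCB series, with all livers at 250 ppm below all controls, while Hspa5 overlaps at every concentration and Dnajc9 is above its controls at the highest concentration of both compounds.

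At 100 ppm 1,2-DCB in liver, 2 member probes were higher and 19 lower, or 43.8% of members against 18.8% of all probes, of which 12% were higher and 6.73% lower. With the libraries that the labels mark as not used brought back, 10 members were called, or 20.8% against 9.46% of all probes. The median log2 change was -0.26 for members and -0.01 for all probes. These livers share their controls with those at 250 ppm, so the contrasts are not independent.

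Of the 9 ER genes 8 were lower at this concentration, all but Edem1, and Hspa5, Calr, Hsp90b1 and Pdia6 passed the test here and not at 250 ppm; the difference between the concentrations was not tested. Hspa5 fell by 0.60 ± 0.21 on the log2 scale (adjusted p = 0.0364), from 3759 ± 1389 to 2480 ± 448 CPM, with 1 of 5 livers below all controls. Calr fell by 0.31 ± 0.10 (adjusted p = 0.0246), Hsp90b1 by 0.38 ± 0.11 (adjusted p = 0.00842) and the disulfide isomerase Pdia6 by 0.50 ± 0.13 (adjusted p = 0.00284). Hyou1 fell by 0.77 ± 0.18 (adjusted p = 0.00145), with 5 of 5 livers below all controls, and Hsp90aa1 by 0.48 ± 0.12 by its best probe (adjusted p = 0.00273).

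Of the heat shock genes that fell at 250 ppm, Hspa1b, Hspa8, Hsph1, Hspb1 and Dnajb1 fell here too, and Hspa4 did not pass. Hsph1 was at 11.8, 16.2 and 19.5 CPM, below all controls in 5 of 5 livers, and fell by 0.92 ± 0.17 on the log2 scale (adjusted p = 5.53e-05). Hspa1b fell by 1.34 ± 0.33 (adjusted p = 0.00207) and Hspa8 by 0.50 ± 0.14 (adjusted p = 0.00811). The rises were of Ddit4, by 1.06 ± 0.25 (adjusted p = 0.00114), and of Dnajc9, by 0.52 ± 0.19 (adjusted p = 0.0472). Over every alternative fit and with each exposed liver left out in turn, 10 of the 21 calls remained at 100 ppm and 18 of the 24 at 250 ppm. Those at 100 ppm were of Ddit4, Hsp90aa1, Hsp90b1, Hspa1b, Hspa8 (2 probes), Hsph1 (2 probes), Hyou1 and Pdia6.

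At 30 ppm, 1 probe was higher and 5 lower, or 12.5% against 11.7% of all probes. Hspa1b fell by 1.09 ± 0.33 on the log2 scale (adjusted p = 0.0181), with 4 of 5 livers below all controls, and Hsp90b1, Pdia6, Hyou1 and Atf5 fell by 0.34 ± 0.11, 0.40 ± 0.13, 0.53 ± 0.18 and 0.33 ± 0.11. The rise was of Hspa2, an HSP70 best known from germ cells, by 0.59 ± 0.20 (adjusted p = 0.0417). Its difference was -0.04 (adjusted p = 0.931) with Dbp as a covariate. None of these 6 calls held under every alternative, 1 member was called with all libraries (4.21% of all probes), and 0 members were called without animal 301, 1 without 305, 2 without 304 and 3 without 303. At 10 ppm Dnajc15, a J-domain protein of the mitochondrial import channel, rose by 0.33 ± 0.09 (adjusted p = 0.024) and no other member was called, against 5.34% of all probes. At 1 ppm, with 2 livers, 0 members and 0 of all probes passed, and 2 members had an unadjusted p under 0.05.

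The liver of mice exposed to 400 ppm 1,4-DCB gave fewer member calls. There, 4 probes were higher and 5 lower, or 18.8% of members against 31.6% of all probes, and with all libraries 5 members were called (10.4% against 20.4%). Herpud1 was at 789, 1101 and 1683 CPM in its 7 controls and at 404, 617 and 859 CPM in the 5 exposed livers. In 4 of 5 it was below all controls, and it fell by 0.97 ± 0.21 on the log2 scale (adjusted p = 0.000149). Dnajc9 went from 7.202 ± 1.57 to 15.9 ± 2.39 CPM, a rise of 1.14 ± 0.20 on the log2 scale (adjusted p = 6.69e-06). Ddit4 rose by 1.02 ± 0.26 (adjusted p = 0.00142), and both were above all controls in 5 of 5 livers.

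Hspa4l, an HSP110 family member, rose by 0.42 ± 0.11 (adjusted p = 0.00115) and the TRiC subunit Cct6a by 0.16 ± 0.06 (adjusted p = 0.036). The Hspa4l controls of this series stood lower than those of the other series, as given further on. Hsp90b1 fell by 0.35 ± 0.11 (adjusted p = 0.0117) and Pdia5 by 0.32 ± 0.11 (adjusted p = 0.0189), both below all controls in 5 of 5 livers, and Atf4 and Canx fell by 0.22 ± 0.08 and 0.14 ± 0.05. Of the 10 cytosolic HSP70, HSP90 and HSP110 genes, Hspa4l was the 1 that passed. Hspa1b was at 18.2, 29.6 and 44.02 CPM in controls and at 16.2, 50.8 and 58.3 CPM in exposed livers, a log2 difference of 0.35 ± 0.32 (adjusted p = 0.45) between overlapping groups. Hsph1 differed by -0.31 ± 0.17 (adjusted p = 0.178) and Hspa5 by -0.28 ± 0.22 (adjusted p = 0.35). Calls of Ddit4, Dnajc9, Herpud1, Hsp90b1 and Hspa4l held in every alternative and with each exposed liver left out.

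At 150 ppm 1,4-DCB, 1 probe was higher and 3 lower, or 8.33% against 5.96% of all probes. Herpud1 fell by 0.74 ± 0.22 on the log2 scale (adjusted p = 0.0312), Hsp90b1 by 0.39 ± 0.12 and Canx by 0.19 ± 0.06, and Dnajc9 rose by 0.72 ± 0.21 (adjusted p = 0.0316). With all libraries 1 member was called, against 4.81% of all probes. This group held 4 livers, and with any 1 of them (401, 402, 404 or 405) left out 0 or 1 members were called. At 1, 10 and 50 ppm 0 members were called in liver, where 0.769% of all probes were called at 50 ppm. Concentrations of 250 and 400 ppm are not matched, so the values of the isomers stand side by side here without a test.

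**Figure D2:**
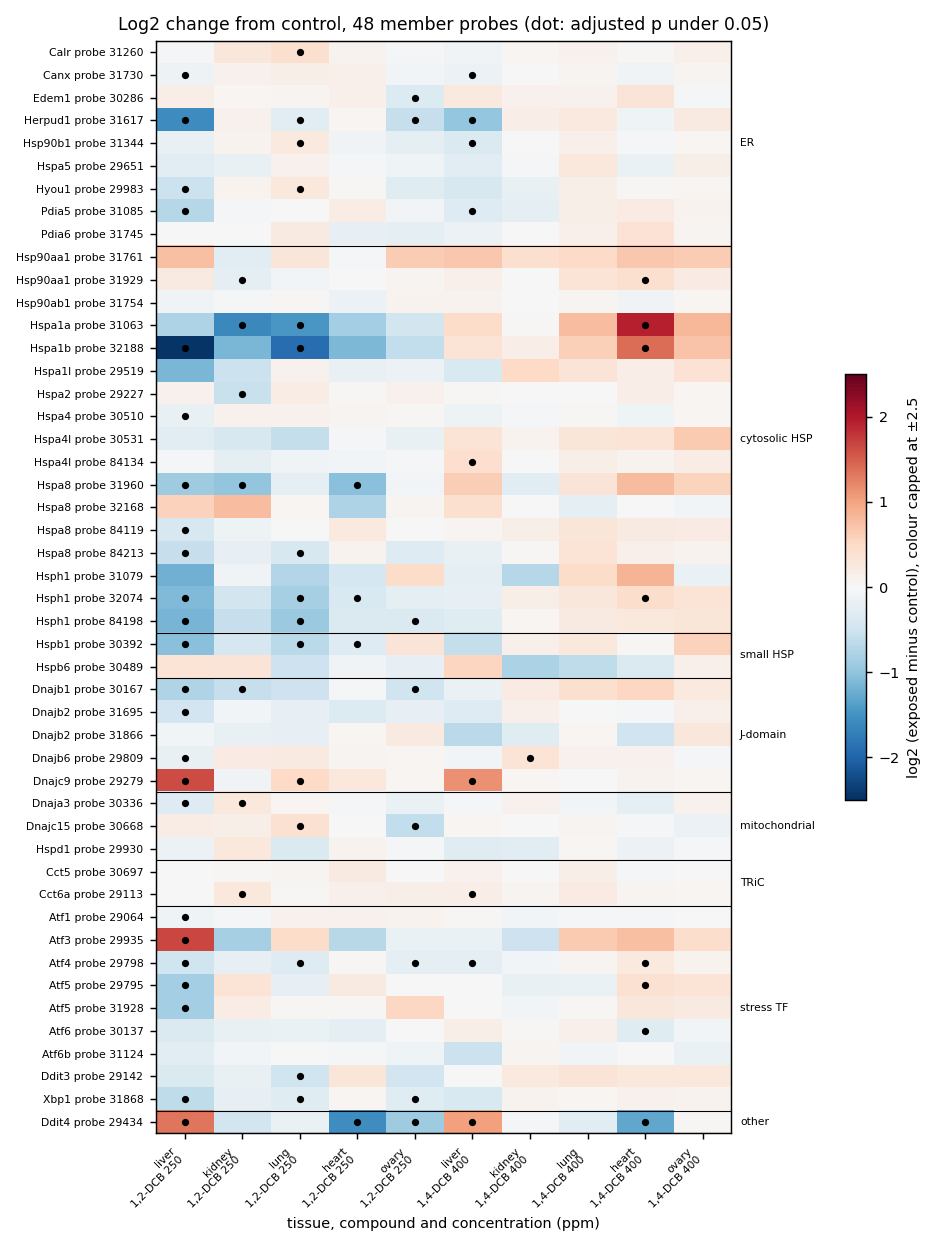
Log2 change from control (colour, capped at ±2.5) of the 48 member probes tested, in rows by role, at 250 ppm 1,2-DCB and 400 ppm 1,4-DCB in 5 tissues, in columns. A dot marks an adjusted p under 0.05; the liver at 250 ppm 1,2-DCB has 24 dots and the ovary at 400 ppm 1,4-DCB has 0.

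The isomers shared 1 and 10 ppm, where the change from control could be compared directly in 10 contrasts, each adjusted over all probes of its tissue. One member differed in these 10, Dnajc15 in liver at 10 ppm, by -0.56 ± 0.14 on the log2 scale (1,4-DCB change minus 1,2-DCB change, adjusted p = 0.0147), against 1.58% of all probes. In the other 9, the share of all probes called was 0.22% in kidney, 0.363% in lung and 1.14% in heart at 10 ppm, and 0% elsewhere. The level of Dnajc15 was 21.9 ± 2.13 CPM in controls and 27.6 ± 3.26 CPM at 10 ppm of 1,2-DCB, and 26.1 ± 2.14 and 22.3 ± 2.01 CPM of 1,4-DCB. With the libraries that the labels mark as not used brought back, its adjusted p was 0.597. For Hspa1b in liver at 10 ppm the difference was 1.29 with an approximate 95% interval from 0.34 to 2.24 (adjusted p = 0.194). For Herpud1 it was -0.20 with an interval from -0.78 to 0.39, and for Hspa5 0.55 with an interval from -0.08 to 1.17. The intervals of Herpud1 and Hspa5 include 0, and their width is what 4 livers per isomer allow.

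The control animals of the series differed in few members. Hspa4l in liver was lower in the 1,4-DCB series by 0.37 ± 0.09 on the log2 scale (79.3 ± 7.15 against 103 ± 11.7 CPM, adjusted p = 0.0334), against 0.577% of all probes. Dnajb2 in heart was higher by 0.82 ± 0.19 (adjusted p = 0.00963, 1.87% of all probes). This was the Dnajb2 probe with fewer counts, at a median of 2.945 CPM over the heart controls of both series, and its other probe did not pass. Dnajc15 in ovary was lower by 0.52 ± 0.11 (adjusted p = 0.00278, 6.16% of all probes). In kidney and lung 0 members differed, against 0.879% and 0.363% of all probes. The compound series and any other difference between these sets of animals cannot be told apart.

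In lung at 250 ppm 1,2-DCB, 5 probes were higher and 10 lower, or 31.2% of members against 32.6% of all probes, a share near the background. Of the 10 cytosolic HSP70, HSP90 and HSP110 genes, Hspa1a, Hspa1b, Hspa8 (1 of 4 probes) and Hsph1 (2 of 3 probes) fell, and the other 6 did not pass. Hspa1b was at 92.5, 115.4 and 251 CPM in 10 controls and at 16.4, 39.9 and 53.2 CPM in 6 exposed lungs. The groups did not overlap, and it fell by 1.91 ± 0.40 on the log2 scale (adjusted p = 0.000109). Hsph1 was at 49.1, 70.8 and 85.3 CPM in controls and at 17.5, 41.4 and 48.4 CPM in exposed lungs, again without overlap, and fell by 0.93 ± 0.20 (adjusted p = 0.000198). Hspb1 fell by 0.67 ± 0.18 (adjusted p = 0.00299), with 5 of 6 lungs below all controls.

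Of the 9 ER genes in lung, Calr, Hsp90b1 and Hyou1 rose, Herpud1 fell, and Hspa5, Canx, Pdia5, Pdia6 and Edem1 did not pass. Calr was at 11740, 13610 and 16080 CPM in controls and at 14790, 17190 and 24540 CPM in exposed lungs. In 4 of 6 lungs it was above all controls, and it rose by 0.41 ± 0.12 on the log2 scale (adjusted p = 0.00673). Hsp90b1 rose by 0.24 ± 0.08 (adjusted p = 0.0161) and Hyou1 by 0.26 ± 0.09 (adjusted p = 0.0211). With Dbp as a covariate the adjusted p was 0.106 for Calr, 0.383 for Hsp90b1 and 0.984 for Hyou1, whose difference became -0.0029. Herpud1 fell by 0.29 ± 0.10 (adjusted p = 0.0183).

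Dnajc9 rose by 0.49 ± 0.09 in lung (adjusted p = 1.91e-05), with 6 of 6 above all controls, and Dnajc15 by 0.38 ± 0.14 (adjusted p = 0.0277). Ddit3 (CHOP), which promotes cell death in lasting ER stress, fell by 0.49 ± 0.14 (adjusted p = 0.00568), and Atf4 and Xbp1 fell by 0.32 ± 0.08 and 0.30 ± 0.11. The calls that held in every alternative and with each exposed lung left out were 6 of 15, of Ddit3, Dnajc9, Hspa1b, Hspb1 and Hsph1 (2 probes). Without animal 506R, 8 members were called. Red cell markers (6 probes) were at a median of 416800 CPM in control lungs and 41340 CPM at 250 ppm, with overlapping ranges, and leukocyte markers (11 probes) at 46050 and 56400 CPM; their part in the member changes was not tested. At 30 ppm Dnajb6, a J-domain protein that holds back aggregation, rose by 0.36 ± 0.10 (adjusted p = 0.0202), 1 of 48 against 4.57% of all probes. No member was called at 400 ppm 1,4-DCB, against 2.61% of all probes, and 7 had an unadjusted p under 0.05. There Hspa1b was at 61.8, 225 and 373 CPM, with a log2 difference of 0.60 ± 0.38 (adjusted p = 0.474).

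In kidney at 250 ppm 1,2-DCB, 2 probes were higher and 5 lower, or 14.6% of members against 11.7% of all probes. Hspa2 was at 80.8, 83.97 and 97.6 CPM in 5 controls (lowest, median and highest) and at 46.7, 56.1 and 74.9 CPM in 6 exposed kidneys. The groups did not overlap, and it fell by 0.55 ± 0.09 on the log2 scale (adjusted p = 1.02e-05), the 1 call here that held in every alternative. Dnajb1 fell by 0.58 ± 0.15 (adjusted p = 0.0086), with 5 of 6 kidneys below all controls, and Hsp90aa1 by 0.25 ± 0.08 (adjusted p = 0.0294), with 6 of 6. This is the best Hsp90aa1 probe. The other Hsp90aa1 probe did not pass, and its groups overlapped.

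Hspa1a fell by 1.61 ± 0.52 in kidney (adjusted p = 0.0326), from 5.56 ± 1.80 to 1.79 ± 0.77 CPM. Its copy Hspa1b was at 133.7, 170 and 214 CPM in controls and at 41.9, 60.6 and 167 CPM in exposed kidneys, a log2 difference of -1.15 ± 0.40 (adjusted p = 0.0513). Without animal 508, the adjusted p was 0.00684. Cct6a and Dnaja3, a mitochondrial J-domain protein, rose by 0.26 ± 0.07 and 0.26 ± 0.08. With Dbp as a covariate the calls of Dnajb1, Cct6a, Dnaja3 and Hspa1a were lost, and 0 members were higher and 11 lower. With all libraries 13 members were called, or 27.1% against 16.4% of all probes. Without exposed animal 504 or 505, or without control 10, 4 members were called. Hepatocyte markers (11 probes) summed to between 2631 and 2887 CPM in control kidneys and between 3899 and 4937 CPM at 250 ppm, and 16 kidney libraries were left out by the submitters for potential tissue contamination; the part of this in the results was not tested. At 400 ppm 1,4-DCB Dnajb6 rose by 0.35 ± 0.08 (adjusted p = 0.00969), in 5 of 5 kidneys above all controls, 1 of 48 against 1.03% of all probes. Its adjusted p was 0.348 with Dbp as a covariate, and without animal 504 0 members were called.

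In heart at 250 ppm 1,2-DCB, 0 members were higher and 4 lower, or 8.33% against 8.88% of all probes. Ddit4 was at 17.04, 30.7 and 74.4 CPM in 10 controls and at 9.97, 12.5 and 22.03 CPM in 7 exposed hearts. In 6 of 7 it was below all controls, and it fell by 1.55 ± 0.32 on the log2 scale (adjusted p = 0.000584). This difference was -0.07 (adjusted p = 0.934) with Dbp as a covariate. Hsph1 fell by 0.38 ± 0.12 (adjusted p = 0.0266), with 6 of 7 hearts below all controls, Hspb1 by 0.31 ± 0.10 (adjusted p = 0.0266) and 1 Hspa8 probe by 1.04 ± 0.33, from 2.80 ± 1.22 to 1.32 ± 0.78 CPM. For Hsph1 only the best probe passed. Without animal 506R, 2 members were called. Hspa1b differed by -1.13 ± 0.48 (adjusted p = 0.129). At 30 ppm Herpud1 rose by 0.43 ± 0.12 (adjusted p = 0.0219), 1 of 48 against 2.04% of all probes, and its difference was -0.17 (adjusted p = 0.799) with Dbp as a covariate.

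The heart at 400 ppm 1,4-DCB had 6 members higher and 2 lower, or 16.7% against 13% of all probes. Hspa1b rose by 1.40 ± 0.48 on the log2 scale (adjusted p = 0.0427), from 17.6 ± 8.99 to 46.2 ± 35.2 CPM, and Hspa1a by 1.95 ± 0.55 (adjusted p = 0.0145). Of the 5 hearts, 3 were above all controls for Hspa1b and 1 was below all of them. Hsph1 rose by 0.45 ± 0.13, Hsp90aa1 by 0.39 ± 0.10, Atf4 by 0.25 ± 0.07 and Atf5 by 0.38 ± 0.11. For each, 3 of 5 hearts were above all controls. The Atf5 rise rested largely on animal 501, at 231.8 CPM. Without that animal the log2 difference of Atf5 was 0.11 (adjusted p = 0.564). Ddit4 fell by 1.295 ± 0.36 (adjusted p = 0.0109) and Atf6, an ER stress sensor, by 0.31 ± 0.10 (adjusted p = 0.0278). The difference of Ddit4 with Dbp as a covariate was 0.0073 (adjusted p = 0.99). Without animal 503, 2 members were called, and without animal 501, 3.

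At 150 ppm 1,4-DCB 4 members were higher and 9 lower in heart, or 27.1% against 27.2% of all probes. Hspa5 fell by 0.48 ± 0.15 on the log2 scale (adjusted p = 0.0129), with 5 of 5 hearts below all controls, and Canx by 0.21 ± 0.06 (adjusted p = 0.00876). Edem1, which directs misfolded glycoproteins to disposal, rose by 0.41 ± 0.12 (adjusted p = 0.00823) and Atf5 by 0.37 ± 0.11 (adjusted p = 0.0104). Without animal 405, 0 members were called, and without animal 401, 8. No call in heart held in every alternative and with each exposed heart left out, at any concentration.

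In ovary at 250 ppm 1,2-DCB, 0 members were higher and 8 lower, or 16.7% against 15.9% of all probes. Edem1 was at 1432, 1790 and 2290 CPM in 10 controls and at 1086, 1406 and 1627 CPM in 7 exposed ovaries. The groups overlapped in 3 of 7, and it fell by 0.35 ± 0.09 on the log2 scale (adjusted p = 0.00477), the 1 call here that held in every alternative. Dnajc15 fell by 0.62 ± 0.13 (adjusted p = 0.000808) and Ddit4 by 0.88 ± 0.16 (adjusted p = 0.000228), each with 6 of 7 ovaries below all controls.

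Herpud1 fell by 0.57 ± 0.18 in ovary (adjusted p = 0.0227), Hsph1 by 0.37 ± 0.11 (adjusted p = 0.0128), Dnajb1 by 0.49 ± 0.17, Xbp1 by 0.31 ± 0.10 and Atf4 by 0.25 ± 0.08. For Hsph1 only the best probe passed. The adjusted p with Dbp as a covariate was 0.0711 for Ddit4, 0.213 for Dnajc15, 0.723 for Dnajb1 and 0.848 for Atf4. The Dnajc15 controls of this series also stood above those of the other series, as given above. Without animal 505, 4 members were called, and without animal 508, 5. Control animal 1 lay far above the other controls in Dnajb1 (65.67 CPM, others up to 45.8) and Atf4 (453.3 CPM, others up to 307). Controls were not left out in turn in ovary, so these falls were not tested without it. Hspa1b differed by -0.62 ± 0.25 (adjusted p = 0.072). In ovary at 400 ppm 1,4-DCB 0 members were called, against 0.479% of all probes, and 9 had an unadjusted p under 0.05; Hspa1b differed by 0.72 ± 0.26 (adjusted p = 0.352).

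Of the 50 contrasts with control, 35 had 0 members called by edgeR. In these 35, between 0 and 13 members had an unadjusted p under 0.05, and DESeq2 called 1 member in 6 and 0 in the others. All probes were called at shares of up to 6.53% there, in lung at 100 ppm 1,2-DCB. For 1,2-DCB the share was 0.44%, 0.696% and 0.0366% in kidney at 10, 30 and 100 ppm, 1.89% in lung at 10 ppm, 0.978% and 0.733% in heart at 10 and 100 ppm, and 0.0737% in ovary at 10 and at 100 ppm. For 1,4-DCB it was 0.476% in kidney at 1 ppm, 0.0726%, 1.2% and 0.472% in lung at 10, 50 and 150 ppm, and 0.0369% in ovary at 150 ppm. Beside those given with their tissues above, the remaining shares were 0%.

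**Figure D3:**
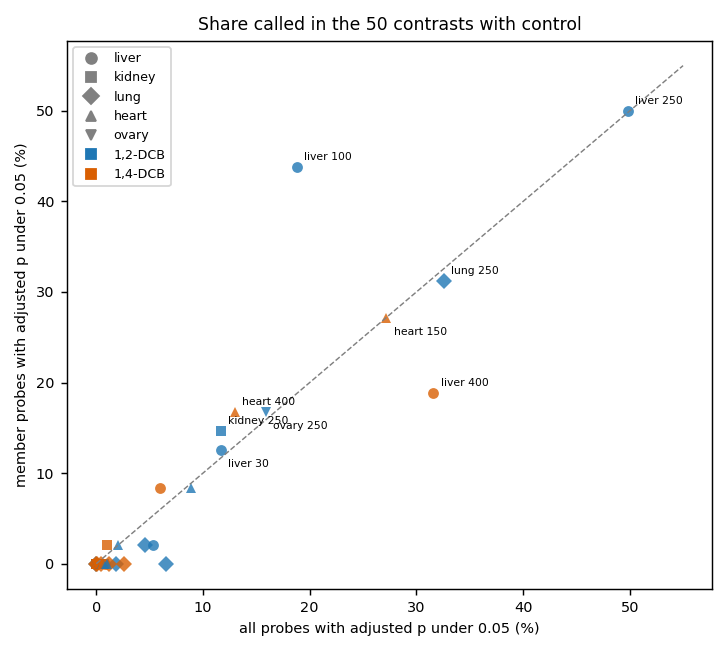
Share of the 48 member probes with an adjusted p under 0.05 (vertical, percent) against the share of all probes tested (horizontal, percent) in the 50 contrasts with control; shapes are tissues, colours compounds and the dashed line equal shares. Liver at 100 ppm 1,2-DCB lies above the line, at 43.8% against 18.8%, liver at 400 ppm 1,4-DCB below it, at 18.8% against 31.6%, and liver, lung and ovary at 250 ppm and heart at 150 ppm close to it.

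Whether the changes differed between liver and the other tissues was tested directly, in fits that scaled liver and 1 other tissue together. At 250 ppm 1,2-DCB, the change of 16 members differed between kidney and liver (31.8% of all probes), of 24 between lung and liver (38.6%), of 24 between heart and liver (32.4%) and of 20 between ovary and liver (33.2%). At 400 ppm 1,4-DCB these were 5 (15.5%), 16 (24.6%), 9 (23%) and 5 (15.5%). The scaling moved the median difference of all probes to 0.20 and 0.21 in lung at 250 and 400 ppm and to 0.11 in heart at 400 ppm, and to under 0.1 elsewhere. The lung values, and those of heart at 400 ppm, are therefore also given relative to that median; counts and adjusted p-values belong to the differences as fitted.

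Herpud1 changed differently from liver in all 4 tissues and at both highest concentrations, each time above liver. At 250 ppm its change was above that of liver by 1.69 ± 0.28 on the log2 scale in kidney (adjusted p = 2.91e-07), by 1.71 ± 0.21 in heart (adjusted p = 1.37e-11), by 1.10 ± 0.26 in ovary (adjusted p = 0.000306) and by 1.51 ± 0.21 in lung (adjusted p = 1.94e-09), or 1.31 relative to the median of all probes. At 400 ppm the differences were 1.13 ± 0.28 in kidney and 1.17 ± 0.29 in ovary and, relative to the median, 0.82 ± 0.23 in heart and 1.19 ± 0.22 in lung. Dnajc9 and Ddit4 differed from liver in all 8 comparisons in the other direction. For Dnajc9 at 250 ppm the difference was -1.69 ± 0.23 in kidney, -1.26 ± 0.21 in heart, -1.46 ± 0.21 in ovary and, relative to the median, -1.09 ± 0.19 in lung. Atf5 changed differently in all 4 tissues at 250 ppm, by 1.195 ± 0.20 in kidney and 1.17 ± 0.15 in heart.

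Hspa1b and Hsph1 differed from liver in some tissues. Hspa1b at 250 ppm had a change above that of liver by 1.94 ± 0.39 in ovary (adjusted p = 2.27e-05) and by 1.32 ± 0.51 in kidney (adjusted p = 0.0375). In heart the difference was 1.43 ± 0.59 (adjusted p = 0.0511), which passed at 0.0194 with the animal as a block, and in lung 0.76 ± 0.50 as fitted (adjusted p = 0.24). Hsph1 differed by 0.90 ± 0.19 in ovary (adjusted p = 4.57e-05) and by 0.91 ± 0.23 in heart (adjusted p = 0.000766). In kidney the same probe missed, at an adjusted p of 0.0769, and passed with the animal as a block, at 0.00508, while a second probe passed in both fits (0.038 and 0.000182). Of the ER chaperones, Calr, Hsp90b1 and Hspa5 differed from liver in lung as fitted, by 0.66 ± 0.17, 0.66 ± 0.13 and 0.60 ± 0.25 (adjusted p = 0.000824, 1.82e-05 and 0.0416). Relative to the median of all probes these are 0.46, 0.46 and 0.40, and that of Hspa5 is then within 2 SE of 0. With all libraries the adjusted p was 0.0767 for Calr, 0.0033 for Hsp90b1 and 0.129 for Hspa5.

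Hspa1b also varied between animals of the same group, and did so in several tissues of 1 animal at once, a pattern chosen after its values were seen. Among the animals at 400 ppm 1,4-DCB, 501, 502 and 503 had 56.9, 79.6 and 76.4 CPM in heart, and animals 504 and 505 had 13.1 and 4.89 CPM. In lung the same animals had 285, 373 and 225 CPM, and 104 and 61.8 CPM. In all 5 tissues of this group the first 3 animals were above the other 2. At 150 ppm, animals 401, 402 and 403 had 45.2, 57.98 and 43.1 CPM in heart, against 4.17 and 10.2 CPM in animals 404 and 405, and 299, 206 and 221 CPM in lung, against 38.01 and 40.55 CPM. They were the higher animals in every tissue in which they were measured. Heart Dbp was lower in animals 501 to 503 (191, 160 and 173 CPM) than in 504 and 505 (256 and 360 CPM), as it was in ovary, and these animals overlapped in liver, kidney and lung. At 150 ppm Dbp overlapped between 401 to 403 and 404 and 405 in all 5 tissues, in heart at 99.3, 53.02 and 71.1 CPM against 56.8 and 65.4 CPM. Its part in the Hspa1b levels was not tested.

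**Figure D4:**
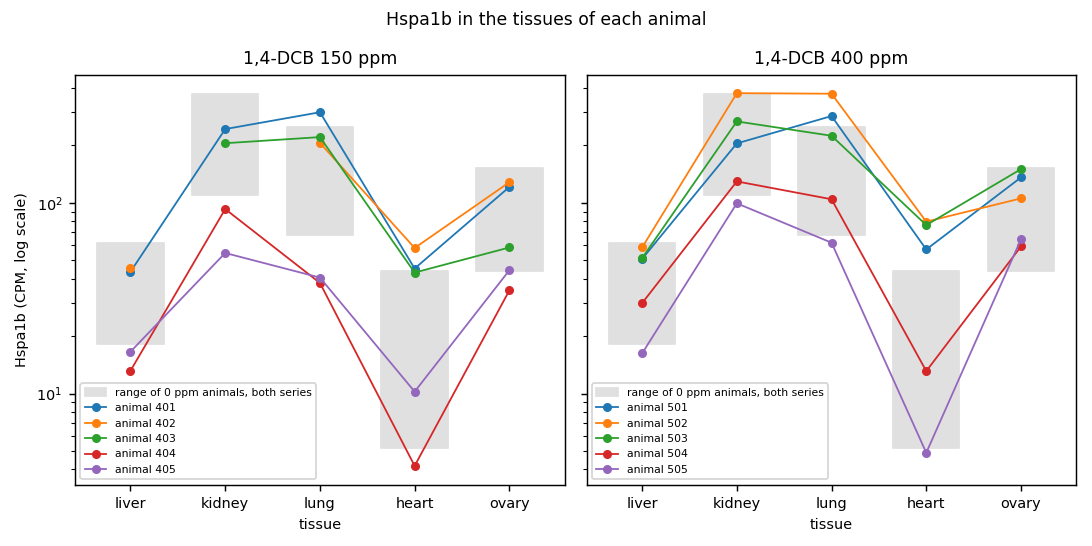
Hspa1b (counts-per-million, log axis) in the 5 tissues of each animal at 150 ppm (left) and 400 ppm (right) of 1,4-DCB; lines join the tissues of 1 animal, broken where no library was used, and grey boxes span the 0 ppm animals of both series. Animals 401 to 403 and 501 to 503 lie above 404, 405, 504 and 505 in every tissue of their group.

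Since the animals at 150 and 400 ppm 1,4-DCB prompted this comparison, the relation was measured in the other groups, as the correlation between tissues of an animal's deviation from its group mean of log2(CPM + 1). Each p came from 100000 permutations within groups, two-sided, and was adjusted over 10 pairs of tissues. Of these 10, 9 passed an adjusted p of 0.05 by r and 6 by rho. Between lung and heart r was 0.849 and rho 0.827 over 60 animals (permutation p = 1e-05 for both, the smallest that could be given, adjusted p = 5e-05), and r was 0.818 without the 2 animals farthest from the median. Between heart and ovary r was 0.638 and rho 0.650 over 62 animals (adjusted permutation p = 5e-05 for both), and r was 0.650 without the 2 farthest. Between liver and lung r was 0.540 and rho 0.558 over 50 animals (adjusted permutation p = 4e-04 and 0.00057), and r was 0.485 without the 2 farthest. Between liver and ovary r was 0.309 and rho 0.227 over 52 animals (adjusted permutation p = 0.043 and 0.14), and r was 0.229 without the 2 farthest. The lowest was between kidney and ovary, at r = 0.0248 and rho = 0.0521 over 42 animals (adjusted permutation p = 0.87 and 0.76), and r was 0.001 without the 2 farthest.

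The wider folding network was followed in lists of other genes. Regulators and co-chaperones of the heat shock response had 3 of 11 probes higher and 3 lower in liver at 250 ppm 1,2-DCB (54.5% against 49.8% of all probes). Bag3, the co-chaperone induced with HSP70, fell by 0.49 ± 0.16 on the log2 scale (adjusted p = 0.011) and Stub1, the ubiquitin ligase that marks chaperone clients, rose by 0.26 ± 0.10 (adjusted p = 0.0284). Among 16 probes of the ER response, folding and disposal, 5 were higher and 4 lower. Ppib, an ER prolyl isomerase, and P4hb, a disulfide isomerase, rose by 0.74 ± 0.06 and 0.59 ± 0.08, and Sel1l, a part of the disposal complex, fell by 0.64 ± 0.10. Of 20 probes for targets of PERK and ATF4, 8 were higher and 2 lower (50%), and Atf4 itself fell. Mthfd2, a mitochondrial folate enzyme, rose by 1.87 ± 0.17 and the proline synthesis gene Pycr1 by 2.31 ± 0.28. Clpx, a mitochondrial protease subunit, fell by 1.58 ± 0.20, and 6 of 7 probes of mitochondrial proteostasis were called, 2 of them higher. Of 16 proteasome probes 1 was higher and 3 lower, or 25%.

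At 100 ppm 1,2-DCB in liver, against a background of 18.8%, the same lists, in the order above, had 0 and 1, 2 and 4, 4 and 0, 1 and 0, and 0 and 0 probes higher and lower. At 400 ppm 1,4-DCB, the targets of PERK and ATF4 had 8 probes higher and 1 lower of 20 (45% against 31.6%), with Mthfd2 up by 1.303 ± 0.19 and Gdf15, a stress-induced cytokine, up by 1.46 ± 0.36. Of the ER list 2 probes were higher and 3 lower there (31.2%), with P4hb and Ppib up by 0.42 ± 0.09 and 0.41 ± 0.07 and Creb3l3, Creld2 and Rpn1 lower. In lung at 250 ppm the ER list had 3 probes higher and 1 lower of 16, or 25% against 32.6% of all probes. P4hb, Ppib and Rpn1, a subunit of the glycosylation complex, rose by 0.42 ± 0.08, 0.41 ± 0.08 and 0.20 ± 0.05. Bbc3, a pro-apoptotic BCL2 family gene that the list also holds, fell by 0.42 ± 0.15. The targets of PERK and ATF4 had 7 probes higher and 1 lower of 22 in these lungs, or 36.4%. Slc7a11 and Mthfd2 rose by 3.02 ± 0.22 and 0.71 ± 0.15, and Cebpb fell by 0.65 ± 0.14.

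As a description over 326 libraries, the probes most like Hspa5 in log2 CPM, centred on the controls of each tissue and series, were Calr (r = 0.686), Hsp90b1 (0.630), Hspa8 (0.592), Sel1l (0.575) and Hyou1 (0.574). The most like Hspa8 were Cacybp, whose product binds the ubiquitin ligase SIAH1 (0.727), Hsph1 (0.618 and 0.492 for 2 probes), Hspa5 (0.592) and Hsp90ab1 (0.505). Libraries share animals and tissues, so no p is given. Of the other 4 members with an ER stress element, Calr and Hsp90b1 are among the 5 probes most like Hspa5, and Canx and Pdia6 are not. Hspa8 and Hyou1, also among the 5, had no promoter sequence to search.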

How the data were processed

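The deposited counts per probe and library were used as whole-number read counts; reads were aligned with Bowtie 1.3.1, per the submitters' processing notes, and the build and probe manifest are not given in the sources used here. In 59 probes all counts were whole multiples of a factor from 2 to 21, members Calr, Hsp90ab1, Hspa5 and 1 Hspa8 probe among them, so their counts carry fewer reads than they show; an alternative fit undid this. Of 360 libraries, 326 were used and 34 left out as the labels mark them (21 of kidney, 11 of liver and 2 of lung). Low probes were filtered with filterByExpr. Each tissue was fitted over its 12 groups by the quasi-likelihood test of edgeR 4.0.16 in R 4.3.3. Scaling was by TMM, and the prior count of the fit was the default. Benjamini-Hochberg adjustment ran over all probes of a contrast, and called means an adjusted p under 0.05. The SE of a log2 change was derived from that test, as the absolute change divided by the square root of its F statistic. The approximate intervals between isomers rest on this SE. Contrasts of 1 compound and tissue share their controls. Replicates were separate animals, per the labels.

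The members and lists were chosen with earlier results of these data known. The genes named are members called in a contrast, a few uncalled members of the same roles, and called genes of the lists. The alternatives were DESeq2 1.42.0, RLE size factors, no filter, all libraries, 1 compound alone, Dbp as a covariate and, in 16 contrasts, each exposed animal left out in turn; controls were left out in turn in kidney at 250 ppm 1,2-DCB only. Tissues were paired by animal from the labels. Deviations from group means, in log2 CPM with a prior count of 2, were correlated between the tissues of an animal. The median correlation with liver was 0.0437 for kidney, 0.0461 for lung, 0.0212 for heart and 0.0261 for ovary. The fitting was tested on simulated data.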

Additional observations from a re-analysis of the deposited data

Results flagged for a closer look

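Of 240 sets of 1 probe in 1 group of 4 to 10 animals, 23 held 1 animal far from the others by Dixon's criterion, which chance alone flags in about 1 set in 20; sets share animals, and heart animal 405 accounts for 5 of the 23. In liver of the 1,2-DCB series, control animal 8 was highest in a second Atf5 probe (19.12 CPM) and in Hspa8 (1143 CPM) and lowest in Dnajb6 (464.3 CPM), and control animal 4 was highest in Pdia5 (96.68 CPM). At 100 ppm, animal 405 was highest in Pdia6 (38.94 CPM), animal 404 lowest in the second Atf5 probe (4.09 CPM) and animal 402 lowest in Hyou1 (89.77 CPM). At 250 ppm, animal 506R was highest in Dnajc9 (49.1 CPM) and lowest in Hspa5 (2000 CPM). In kidney, control animal 10 was highest in Hspa1a (8.676 CPM), control animal 7 in Hspa2 (97.55 CPM) and animal 508 at 250 ppm in Hspa1b (167.4 CPM).

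In heart, animal 305 at 30 ppm 1,2-DCB was highest in Herpud1 (1048 CPM) and animal 503 at 250 ppm in Ddit4 (22.03 CPM). At 150 ppm 1,4-DCB, animal 405 was lowest in Hspa4 (352.9 CPM), Canx (729.9 CPM), Hspa5 (2514 CPM) and Atf1 (214.2 CPM) and highest in Dnajb6 (730.2 CPM); without it 0 members were called there. At 400 ppm, animal 501 was highest in Atf5 (231.8 CPM). In ovary, control animal 1 of the 1,2-DCB series was highest in Dnajb1 (65.67 CPM), Atf4 (453.3 CPM) and Hspa1b (152.1 CPM).

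By the direct test of the difference, the change from control differed between liver and another tissue at 250 ppm 1,2-DCB in 16 members for kidney, 24 for lung, 24 for heart and 20 for ovary. At 400 ppm 1,4-DCB these counts were 5, 16, 9 and 5. Of all probes, 31.8%, 38.6%, 32.4% and 33.2% differed at 250 ppm, and 15.5%, 24.6%, 23% and 15.5% at 400 ppm. Between the isomers at 10 ppm, 1 member differed in liver, Dnajc15, against 1.58% of all probes.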

How the results depend on the processing

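With all libraries, the member counts in liver were 2, 0, 1 and 10 at 1, 10, 30 and 100 ppm 1,2-DCB. Of all probes, 12%, 1.03%, 4.21% and 9.46% were called there. At 150 and 400 ppm 1,4-DCB the liver counts were 1 and 5, against 4.81% and 20.4% of all probes. They were 0 between isomers at 10 ppm and 0 between control animals. In kidney they were 3, 8 and 13 at 30, 100 and 250 ppm, against 10.4%, 8.7% and 16.4% of all probes. In lung they were 12 at 1 ppm 1,2-DCB, or 25% against 19.7% of all probes, and 1 between isomers at 1 ppm. The counts that differed from liver became 14 and 4 in lung at 250 and 400 ppm and 4 in heart at 400 ppm. Of all probes, 27.1%, 10.8% and 15.9% differed there. Shares of all probes are not given below for the fits with 1 compound alone, DESeq2, Dbp as a covariate or an animal left out. Those counts alone do not set the members apart. With 1 compound alone the member counts were 0 in liver at 10 ppm, in kidney at 400 ppm and in lung at 30 ppm. They were 1 in lung and in heart at 100 ppm 1,2-DCB. With DESeq2 there were 2 in liver at 10 ppm and 1 each in kidney at 1 ppm 1,4-DCB, lung at 100 and 400 ppm, heart at 100 ppm and ovary at 10 and 30 ppm.

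With Dbp as a covariate the counts were 3 in liver at 10 ppm, 4, 4 and 11 in kidney at 10, 30 and 250 ppm and 0 at 400 ppm, 6, 7 and 14 in lung at 10, 30 and 100 ppm and 3 at 400 ppm, 0 and 3 in heart at 30 and 100 ppm, and 4 in ovary at 250 ppm. Log2 differences that changed sign were those of Hspa2 in liver at 30 ppm (-0.0415), Hyou1 in lung at 250 ppm (-0.0029), Herpud1 in heart at 30 ppm (-0.1705) and Ddit4 in heart at 400 ppm (0.0073). The cause was not tested.

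With each exposed animal left out in turn, and in kidney at 250 ppm each control too, the counts ranged from 0 to 6, 16 to 18 and 22 to 24 in liver at 30, 100 and 250 ppm, and from 0 to 1 and 7 to 10 at 150 and 400 ppm. In kidney they ranged from 4 to 10 at 250 ppm and 0 to 1 at 400 ppm, and in lung from 0 to 1, 8 to 17, 0 to 0 and 0 to 1 at 100, 250, 150 and 400 ppm. In heart they ranged from 2 to 4, 0 to 14 and 2 to 10 at 250, 150 and 400 ppm, and in ovary from 4 to 10 and 0 to 0 at 250 and 400 ppm.

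With the animal as a block, 22, 25, 24 and 21 members changed differently from liver at 250 ppm in kidney, lung, heart and ovary. At 400 ppm these counts were 6, 21, 9 and 7. Of all probes, 30.8%, 36.1%, 29.6% and 31.7% differed at 250 ppm, and 14%, 23.8%, 19.2% and 13.3% at 400 ppm. Liver at 1 ppm and kidney at 100 ppm 1,2-DCB held 2 libraries each, which limits what could be called there.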
